A study of Mus musculus with 4 samples.

Results

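The 45 genes described here encode enzymes and membrane proteins of the lysosome, and they were taken by gene symbol from a list of 45 names, all found among the 54532 genes of the count file. Their mRNA was read in MDSCs, the myeloid-derived suppressor cells that gather in the lung before tumor cells arrive, sorted as CD11b+Ly6g+ cells from lungs of male C57BL/6 mice of 6 to 8 weeks carrying a pre-metastatic niche (PMN) model. In every group, the control included, MCM, a medium conditioned by B16F10 mouse melanoma cells, was given into the peritoneum at 300 μL on 10 days running, and 100000 B16F10 cells entered by the tail vein on day 7. The control group (Ctrl) received no peptide, and the other groups received TP5, sFD17 or FR17 under the skin from day 3, at the same dose of 40 μM/kg each day, with lungs taken on day 10. TP5 is the free pentapeptide thymopentin. In FR17 it is joined to a peptide that MMP2 cuts and that then assembles, and sFD17 is its counterpart with the pentapeptide scrambled, which assembles but lacks the activity of TP5. Each group was 1 library, for which the cells of 10 to 12 mice were pooled, so no difference below has a replicate check, no p-value is given, and each value compares libraries, not treatments.

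Lysosomes are acid compartments in which hydrolases take apart proteins, glycans and lipids delivered by endocytosis, phagocytosis and autophagy. The hydrolases travel through the Golgi, most of them on mannose 6-phosphate receptors, while membrane proteins such as Lamp1 and Lamp2 line the compartment and transporters such as Npc1 carry products out. Macrophages are rich in lysosomes, and neutrophil-like cells hold related proteases in granules as well. Tfeb and its relatives of the MiT/TFE family are transcription factors that bind E-box motifs near many lysosomal genes.

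Promoter windows of RefSeq, on the GRCm38.p6 build and running from 250 bases before to 50 bases after the start site, were present for 39 of the 45 genes, in 44 windows, and Ctsb, Ctse, Ctsh, Ctsw, Npc1 and Asah1 had none. The E-box searched was CACGTG, which reads the same on both strands. It stood in the windows of 12 of the 39 genes, 30.8%, against 8.09% of the 27025 genes with a window and 11.3% of the 11190 that also had at least 10 counts in 1 library here. The longer TCACGTGA, which contains the E-box and also reads the same on both strands, stood in 4 of the 39, 10.3%, against 1.12% of all windowed genes and 2.06% of those with counts. The 8 stretches that follow are those with the longer motif (Ctsa, Ctsd, Mcoln1 and Gla), that with the most matches (Lamp1), and those of 3 genes whose mRNA differed between libraries by at least 2-fold (Lgmn, Ctsf and Glb1). They are written 5′ to 3′ on the strand of the gene, with each CACGTG in capitals, and that of Ctsd leaves out its match at −245.
Ctsa, chr2:164833736-164833784, plus strand: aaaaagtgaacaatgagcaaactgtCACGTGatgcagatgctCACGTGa
Ctsd, chr7:142387895-142387950, minus strand: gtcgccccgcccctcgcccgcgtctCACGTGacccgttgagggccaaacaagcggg
Mcoln1, chr8:3500423-3500504, plus strand: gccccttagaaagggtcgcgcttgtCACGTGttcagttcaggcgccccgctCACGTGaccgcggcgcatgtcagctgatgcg
Gla, chrX:134601174-134601252, minus strand: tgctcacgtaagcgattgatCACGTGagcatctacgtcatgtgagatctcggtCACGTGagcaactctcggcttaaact
Lamp1, chr8:13159075-13159160, plus strand: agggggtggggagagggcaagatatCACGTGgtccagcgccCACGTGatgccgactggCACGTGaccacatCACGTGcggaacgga
Lgmn, chr12:102439111-102439166, minus strand: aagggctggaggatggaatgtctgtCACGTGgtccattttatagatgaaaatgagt
Ctsf, chr19:4855061-4855116, plus strand: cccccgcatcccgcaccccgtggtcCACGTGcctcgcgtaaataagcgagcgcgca
Glb1, chr9:114401005-114401060, plus strand: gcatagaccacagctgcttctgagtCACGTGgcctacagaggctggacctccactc

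The matches lay from −245 to 6 bases of the start site, and Lamp1 held 4 of them within the last 61 bases before it. Ctsf, whose product is a cysteine protease, had its match at −79, and that of Lgmn was at −49. In the sFD17 library Gla alone of the 12 genes with an E-box stood above control. Gla was 0.23 above control there on the log2 scale, while Lgmn, for example, was 1.15 below. With TP5 all 12 were below control, the highest of them at −0.03. Relative to the median gene, their median in sFD17 was −0.60 and that of the 27 members with a window and no E-box −0.28, while the members themselves ran, as fitted, from −1.76 to 0.23 and from −2.44 to 0.32. A match is a description of letters, and binding was not measured.

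**Figure D1:**
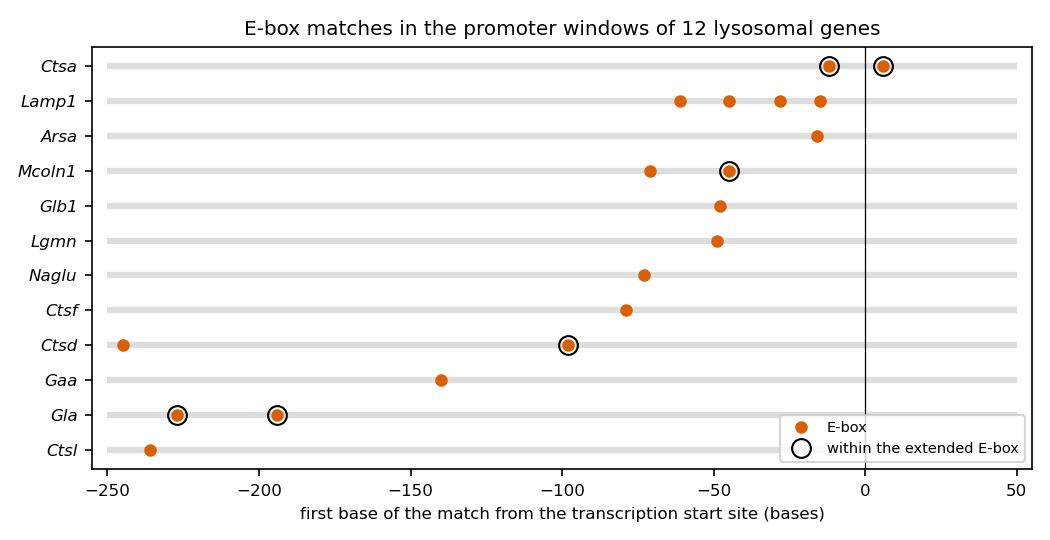
Position of each CACGTG match in the promoter windows of the 12 members that hold it, with the distance of its first base from the start site in bases on the x axis and 1 gene per row. Black rings mark matches inside TCACGTGA. Lamp1 holds 4 matches, and those of Gla and Ctsl and 1 of the 2 of Ctsd lie at −245 to −194.

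The libraries held 15543071 to 19638228 counts on genes. Levels are in CPM, counts per 1000000 of the effective library size from edgeR's TMM method, and log2 differences are of log2 CPM with a prior count of 2. Values in brackets after a log2 difference are exact 95% intervals of the ratio of the counts, and they cover counting error only. A gene was called where a difference reached 2-fold, and the background of such calls is that of the 16369 genes that reached 10 counts in 1 or more libraries. Scaling by library size alone put the median of all genes at 0.26 in FR17 and −0.23 in sFD17, so medians of lists are given relative to the median gene. Of the sorting markers, Itgam (CD11b) had 302 to 433 CPM and Ly6g 73.1 to 111 CPM, and the 17 neutrophil markers took 3.37% to 3.87% of counts. Macrophage markers were present as well and differed between libraries, and their values are given beside the first results.

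All 45 members passed the filter and all are protein coding. Together they took 1.55% of the counts in control, 1.48% with TP5, 1.09% with sFD17 and 1.79% with FR17. On the scaled values they summed to 15755 CPM in control, 14525 with TP5, 12798 with sFD17 and 15333 with FR17, so the sFD17 library had the lowest total. Per length, the members spanned a wide range. Psap, the precursor of the saposins that help hydrolases reach their lipids, was the most abundant, with a mean of 3192 TPM over the libraries, and Arsb, arylsulfatase B, the least, with 7.22 TPM. The median member had 120 TPM, and 25 of the 45 had at least 100.

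The sFD17 library was the low end for most of the list. Relative to the median gene, 29 of the 45 members were lowest in sFD17, where 34.9% of all genes were. Another 10 were lowest in FR17, among them Gla, Ctse, Lamp2, Gm2a and Tfeb, 5 in TP5 and 1, Arsb, in control. The highest library was control for 19 members, FR17 for 17, against 30.7% of all genes, sFD17 for 6 and TP5 for 3. The members lowest in sFD17 and highest in FR17 numbered 15, or 33.3%, where 19.7% of all genes had that pattern, and 7 of these were cysteine proteases. The 19 members that were below control in all 3 peptide libraries, where 15.8% of all genes were, included Ctsa, Ctsb, Ctsd, Tpp1, Cd68 and Lipa.

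Against control, the median member stood at −0.19 with TP5, −0.32 with sFD17 and −0.07 with FR17 on the log2 scale, relative to the median gene. The FR17 median was −0.0019 without a filter on low counts and −0.14 without the cysteine cathepsins and legumain, and by summed counts the TP5 value was −0.12. Of the 45 members 40 were under the median gene with TP5, 36 with sFD17 and 27 with FR17. Counting error alone left 8, 4 and 9 members with an interval that held the median gene in these comparisons. Calls at 2-fold were few. In TP5 Ctsw alone was lower and none higher, against 4.99% of all genes lower and 3.2% higher. In sFD17 Ctsk, Ctsf, Lgmn and Ctsc were lower and none higher, against 6.47% lower and 5.32% higher. In FR17 Gla alone was lower and none higher, against 3.58% lower and 3.92% higher. The 4 called in sFD17 are 8.89% of the members, and all 4 belong to the group of 11 cysteine proteases. Among the 9427 genes with a mean of at least 100 counts, which 44 of the members reached, 3.15% were lower and 2.09% higher in sFD17. The comparisons share the control library.

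**Figure D2:**
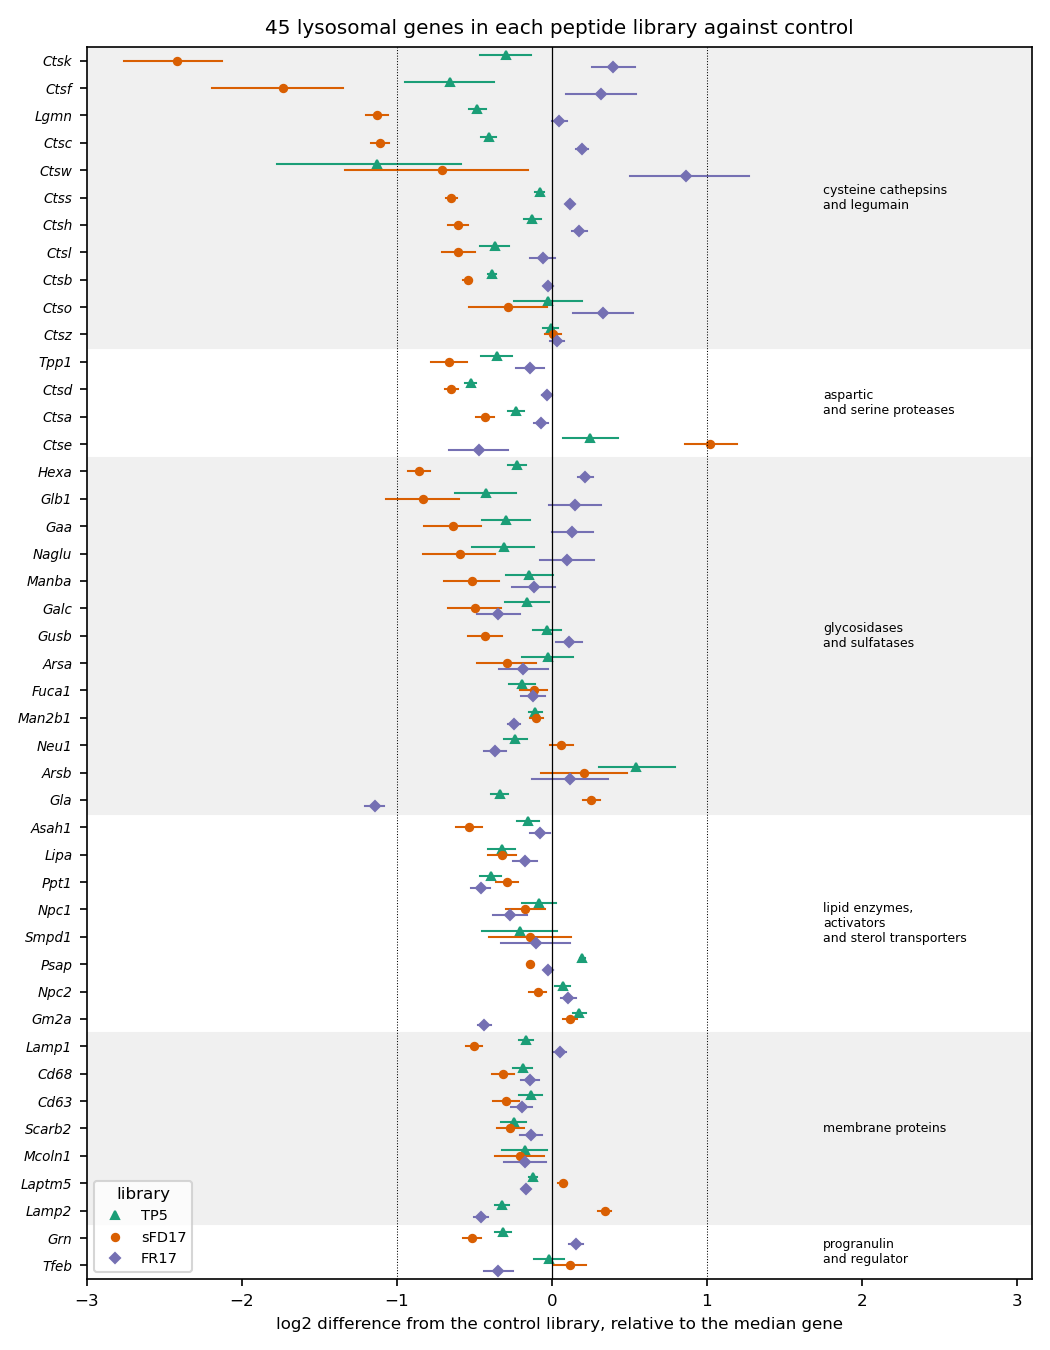
Log2 difference of each of the 45 members from the control library, relative to the median gene, in TP5 (triangles), sFD17 (circles) and FR17 (diamonds), with 95% counting intervals as lines, members sorted within role groups, and dotted lines at 2-fold. Ctsk, Ctsf, Lgmn and Ctsc lie past the left dotted line in sFD17, Ctsw in TP5 and Gla in FR17. Ctse, which was 0.998 above control in sFD17 before the median gene was taken off, falls just past the right one.

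Macrophage markers differed between the same libraries. Like the members' median they were lower with TP5 and sFD17, and unlike it they were higher with FR17. The median of the cysteine cathepsins and legumain was above the median gene with FR17 as well, at 0.18. The 18 markers summed to 0.722% of counts in control, 0.476% with TP5, 0.225% with sFD17 and 1.00% with FR17, and none was at 0 in any library. Their median log2 difference from control, as fitted, was −0.75 with TP5, −1.68 with sFD17 and 0.23 with FR17. All 18 were lower than control in sFD17 relative to the median gene, and 17 were higher in FR17. C1qa, a complement gene that tissue macrophages express, had 726 CPM in control, 409 with TP5, 215 with sFD17 and 896 with FR17. The neutrophil markers went the other way in sFD17, with all 17 above the median gene and a median of 0.47 as fitted. Relative to the median gene, the 7 fibroblast markers had medians of −0.86 with TP5, −0.49 with sFD17 and −0.01 with FR17, on 2553 to 6086 counts in a library, and the 7 endothelial markers −1.12, 0.16 and 0.37, on 1276 to 3425. On the same scale the 9 monocyte markers had medians of 0.43 with TP5, 0.52 with sFD17 and 0.09 with FR17. Those of the 9 dendritic cell markers were 0.82, 0.32 and 0.41. None of these markers was at 0. Macrophages also express most of the lysosomal genes here. The part of these cells in the members' differences was not tested, and in pooled cells fewer cells of a type and less RNA per cell cannot be told apart.

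The cysteine cathepsins and legumain, the endo- and exopeptidases that do much of the protein breakdown in lysosomes, held the widest differences. The median over the 11 was −0.37 with TP5, −0.65 with sFD17 and 0.18 with FR17 relative to the median gene, and the 11 summed to 4304 CPM in control, 3609 with TP5, 2751 with sFD17 and 4608 with FR17. Ctsk (ENSMUSG00000028111, chromosome 3 from 95499256 to 95509362), a collagen-cutting protease best known from osteoclasts, had 39.7 CPM in control, 32.3 with TP5, 7.20 with sFD17 and 53.1 with FR17. The sFD17 library stood alone at the low end, 5.44-fold under control, with a log2 difference of −2.44 (−2.79 to −2.15) on 95 counts against 670. TP5 was at −0.30 (−0.46 to −0.13) and FR17 at 0.42 (0.28 to 0.56). Ctsf (ENSMUSG00000083282, chromosome 19 from 4855129 to 4860912), a papain-like protease, had 15.4 CPM in control, 9.75 with TP5, 4.47 with sFD17 and 19.5 with FR17. It had the same order of libraries as Ctsk, with −0.65 (−0.95 to −0.38) in TP5, −1.76 (−2.22 to −1.37) in sFD17 and 0.34 (0.12 to 0.57) in FR17, on 59 to 448 counts.

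Lgmn (ENSMUSG00000021190, chromosome 12 from 102394084 to 102439813) encodes legumain, which cuts after asparagine and matures other cathepsins. It had 364 CPM in control, 261 with TP5, 164 with sFD17 and 383 with FR17. Its log2 difference was −0.48 (−0.54 to −0.42) in TP5, −1.15 (−1.23 to −1.08) in sFD17 and 0.07 (0.03 to 0.12) in FR17, so TP5 lay between sFD17 and the remaining libraries. Ctsc (ENSMUSG00000030560, chromosome 7 from 88278085 to 88310888) encodes dipeptidyl peptidase I, which activates the serine proteases of neutrophil granules and the granzymes. It had 500 CPM in control, 377 with TP5, 228 with sFD17 and 583 with FR17, which put sFD17 at −1.13 (−1.19 to −1.07), TP5 at −0.41 (−0.45 to −0.36) and FR17 at 0.22 (0.18 to 0.26). Ctsb, Ctss and Ctsz, the group's members with the highest mean TPM, stood closer to control in sFD17 than Lgmn and Ctsc did. Ctsb, the general cysteine protease of the group, had 1441 CPM in control, 1102 with TP5, 972 with sFD17 and 1442 with FR17, with −0.57 (−0.60 to −0.54) in sFD17. Ctss, which trims the invariant chain of MHC class II, had 1056, 1000, 662 and 1166 CPM in the same order of libraries, with −0.67 (−0.71 to −0.64) in sFD17 and −0.08 in TP5. Ctsh and Ctsl were at −0.63 in sFD17 and Ctso at −0.30. Ctsz, a carboxypeptidase, had 397 CPM in control, 395 with TP5, 393 with sFD17 and 413 with FR17. Its 4 values lay within 0.07 of each other on the log2 scale, and its interval in sFD17 ran from −0.07 to 0.04.

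Ctsw followed another order of libraries. It (ENSMUSG00000024910, chromosome 19 from 5465240 to 5468498) encodes a cathepsin of NK cells and cytotoxic T cells, and had 4.74 CPM in control, 2.11 with TP5, 2.80 with sFD17 and 8.89 with FR17. On 80, 37, 37 and 204 counts, its log2 difference was −1.13 (−1.77 to −0.59) in TP5, −0.73 (−1.36 to −0.18) in sFD17 and 0.89 (0.53 to 1.30) in FR17. The 7 NK cell markers summed to 473 counts in control, 299 with TP5, 281 with sFD17 and 2060 with FR17, with medians of −0.80, −0.46 and 1.60 relative to the median gene in the peptide libraries and none at 0. All 7 were lower with TP5 and higher with FR17, and in sFD17 5 were lower and 2, Ncr1 and Prf1, higher. Gzma, a granzyme, had 14.6, 8.38, 10.4 and 47.5 CPM. The 8 T cell markers summed to 901 counts in control, 781 with TP5, 428 with sFD17 and 2206 with FR17, none at 0. Their medians were 0.18, −0.17 and 0.92 relative to the median gene, and all 8 were higher in FR17, as Ctsw was. In TP5 5 of the 8 were above the median gene and 3 below, with Cd4 lowest at −1.10 as fitted. The sum of the 8, scaled and relative to the median gene, was 0.834 times control there. The part of NK cells and of T cells in the level of Ctsw was not tested.

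**Figure D3:**
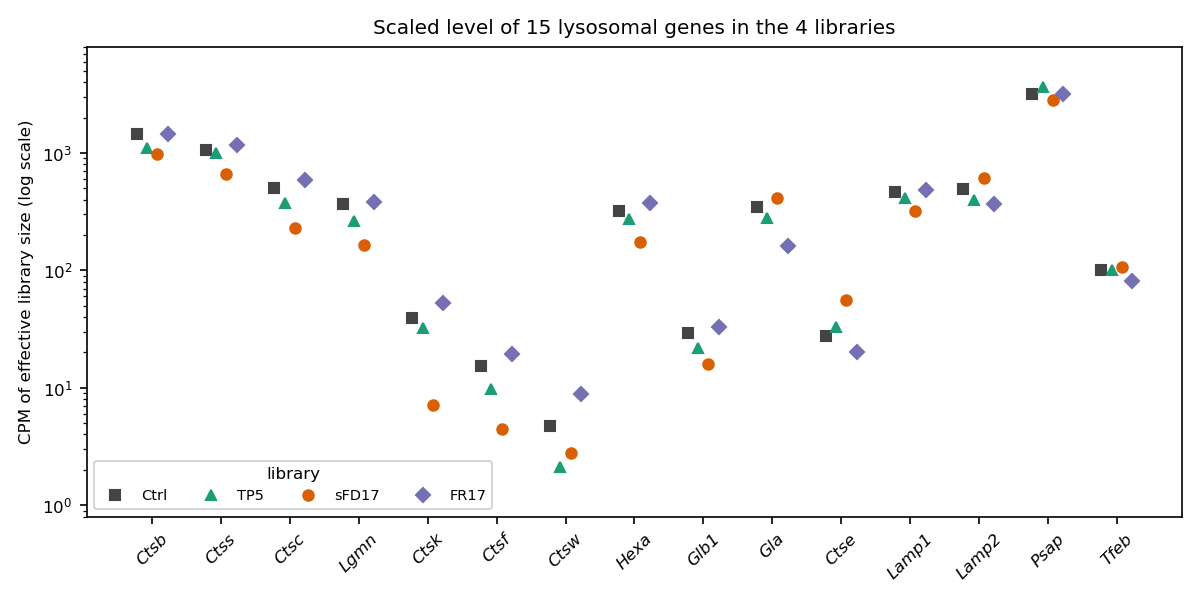
Scaled level (CPM, log axis) of 15 members in the control (squares), TP5 (triangles), sFD17 (circles) and FR17 (diamonds) libraries, 1 point per library and without error bars because each group was 1 library. Ctsk and Ctsf have sFD17 far under the other points, Ctsw has TP5 lowest, and Gla, Ctse and Lamp2 have FR17 lowest and sFD17 highest.

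Among the aspartic and serine proteases, 3 of the 4 were lower in sFD17 and the fourth was higher. Ctsd, the main aspartic protease of lysosomes, had 863 CPM in control, 602 with TP5, 542 with sFD17 and 858 with FR17. Its log2 difference was −0.67 (−0.71 to −0.63) in sFD17 and −0.52 (−0.56 to −0.48) in TP5, and in FR17 its interval of −0.04 to 0.02 held control. Tpp1, a tripeptidyl peptidase, had 108, 84.7, 67.1 and 99.8 CPM in control, TP5, sFD17 and FR17, and Ctsa, the protective protein that keeps Glb1 and Neu1 stable, 413, 352, 301 and 401. Ctse, an aspartic protease of endosomes, went the other way. It was picked out after its values were seen, with 27.7 CPM in control, 33.0 with TP5, 55.5 with sFD17 and 20.3 with FR17, and its sFD17 value of 0.998 (0.83 to 1.17) lay just under the 2-fold line.

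The glycosidases and sulfatases take sugars and sulfates off glycans and glycolipids, and their median was −0.19 with TP5, −0.43 with sFD17 and −0.12 with FR17 relative to the median gene. Hexa (ENSMUSG00000025232, chromosome 9 from 59539540 to 59565109), the α subunit of β-hexosaminidase, had 318 CPM in control, 273 with TP5, 173 with sFD17 and 376 with FR17. Its log2 difference was −0.88 (−0.95 to −0.81) in sFD17, short of 2-fold. Glb1, β-galactosidase, was at −0.85 there, and Gaa, Naglu, Manba and Galc, which cut glycogen, heparan sulfate, mannosides and galactolipids, were at −0.66 to −0.52. Man2b1, the lysosomal α-mannosidase, differed little, with 601, 558, 551 and 516 CPM in control, TP5, sFD17 and FR17. Arsb was highest in TP5, at 0.55 (0.31 to 0.80) above control.

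Gla (ENSMUSG00000031266, chromosome X from 134588149 to 134601125) encodes α-galactosidase A, which cleaves globotriaosylceramide, and its highest and lowest libraries were those of Hexa exchanged. It had 350 CPM in control, 278 with TP5, 411 with sFD17 and 161 with FR17, so FR17 was far under the other libraries. The log2 difference was −1.12 (−1.18 to −1.06) in FR17, −0.33 (−0.39 to −0.28) in TP5 and 0.23 (0.18 to 0.28) in sFD17. Scaling by library size alone, which moves the median gene to 0.26 in FR17, put Gla at −0.87, and relative to the median gene it stayed past 2-fold at −1.14. Of the 17 neutrophil markers, 9 were above the median gene in FR17, Mpo called among them, and 8 below, Csf3r called among them. Of the 17, 4 had the library order of Gla, namely S100a9, Csf3r, Cxcr2 and Padi4, an order that 12.3% of all genes had. Scaled and relative to the median gene, the 17 summed to 1.11 times control with TP5, 1.34 with sFD17 and 0.885 with FR17. Csf3r and Cxcr2, receptors of neutrophils picked out after their values were seen, had 4952, 3571, 5947 and 2409 CPM and 839, 610, 1052 and 454 CPM in control, TP5, sFD17 and FR17. The part of neutrophils in the level of Gla was not tested.

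Lipid enzymes, activators and sterol transporters stood close to the median gene in the 3 peptide libraries. The median of the 8 was −0.12 with TP5, −0.15 with sFD17 and −0.14 with FR17 relative to the median gene. None of the 8 was called against control, where 3.2% to 6.47% of all genes were called per direction and library. Psap had 3175 CPM in control, 3644 with TP5, 2836 with sFD17 and 3173 with FR17, with TP5 at 0.20 (0.18 to 0.22). Npc2, which hands cholesterol to Npc1, had 353, 370, 325 and 386 CPM in the same order. Gm2a, the activator that presents its ganglioside to β-hexosaminidase, had 535, 606, 571 and 402 CPM, and was thus lowest in FR17 at −0.41, in contrast to Hexa. Asah1, acid ceramidase, stood at −0.56 in sFD17, and Npc1, Smpd1, Lipa and Ppt1 were at −0.35 to −0.16 there.

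The 7 membrane proteins had a median of −0.17 with TP5, −0.27 with sFD17 and −0.16 with FR17 relative to the median gene, and their range in sFD17 was −0.53 to 0.32. The 2 major lysosomal glycoproteins bounded that range. Lamp1 had 463 CPM in control, 413 with TP5, 321 with sFD17 and 488 with FR17, with sFD17 at −0.53 (−0.58 to −0.47). Lamp2, picked out after its values were seen, had 495, 397, 616 and 367 CPM in the same order, so sFD17 was its highest library and FR17 its lowest. Laptm5, a lysosomal membrane protein of blood cells, was the most abundant of the group per length, at 876 TPM in control, and had 1234, 1135, 1274 and 1120 CPM in the 4 libraries. Its sFD17 value was within 0.05 of control. Cd68, a glycoprotein of phagocytes often used as a macrophage marker, had 248, 217, 195 and 228 CPM, with sFD17 at −0.34 (−0.41 to −0.27), against −1.68 for the median of the macrophage markers. Cd63, Scarb2 and the calcium channel gene Mcoln1 were between −0.32 and −0.23 in sFD17.

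Grn, progranulin, a secreted and lysosomal protein that is cut into granulins, had 408 CPM in control, 328 with TP5, 280 with sFD17 and 462 with FR17. Tfeb had 101, 99.8, 108 and 80.9 CPM, with FR17 lowest at −0.32 and sFD17 at 0.09. The mRNA of Tfeb and the members' median stood in different orders across the libraries. The activity of the Tfeb protein was not measured, and its part in the members' levels was not tested.

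FR17 and sFD17 were given at the same dose and on the same days and differ in the order of the residues of the pentapeptide. Of the 45 members, 7 were called higher in FR17 than in sFD17 and 2 lower, against 11.3% of all genes higher and 10.8% lower. These are 15.6% and 4.44% of the members. Among genes with a mean of at least 100 counts the background was 6.39% higher and 8.3% lower, and of the 44 members among them 6 were called higher, 13.6%, and 2 lower, 4.55%. The median member was 0.17 above the median gene, and 32 of the 45 were above it. Without a filter on low counts that median was 0.28, and without the cysteine cathepsins and legumain, an alternative chosen after seeing the data, 0.10. Ctsk stood at 2.86 (2.58 to 3.20), a 7.28-fold difference, Ctsf at 2.10 (1.73 to 2.54), Ctsw at 1.63 (1.15 to 2.21), Ctsc at 1.35 (1.30 to 1.41), Lgmn at 1.23 (1.16 to 1.30), Hexa at 1.12 (1.05 to 1.19) and Glb1 at 1.03 (0.81 to 1.26). Glb1 passes the 2-fold line only before the 0.07 by which the median gene was higher in FR17 is taken off. Ctse was lower in FR17 at −1.44 (−1.62 to −1.28) and Gla at −1.35 (−1.41 to −1.29). Library size alone put the median gene at 0.52 in this comparison, and 19 members were then called higher and 0 lower, against 25.7% and 4.78% of all genes. Taken relative to the median gene under that scaling, 6 were higher and 2 lower, against 9.29% and 12.3%, with Gla, at −1.41, and Ctse still past 2-fold. In 9 members, 20%, sFD17 and FR17 lay on opposite sides of control and at least 2-fold apart, against 18.4% of all genes. The cysteine proteases had a median of 0.75 relative to the median gene, and 10 of the 11 were above it, the exception being Ctsz. The macrophage markers stood at a median of 1.88 as fitted in the same comparison, with all 18 higher.

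**Figure D4:**
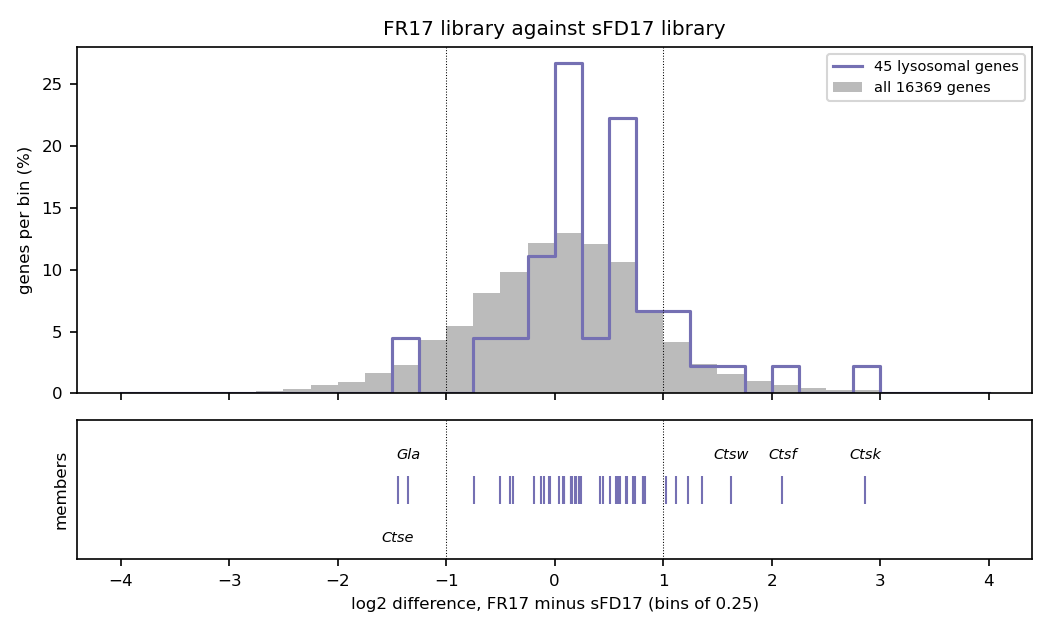
Distribution of the log2 difference between the FR17 and sFD17 libraries, as the percentage of genes per bin of 0.25, for all 16369 genes (grey bars) and the 45 members (line), with each member as a tick below and dotted lines at 2-fold. Genes beyond 4 in either direction are not drawn. The members sit mostly between the dotted lines, with Ctsf at 2.10 and Ctsk at 2.86 on the far right and Gla and Ctse on the left.

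The comparisons with TP5 share these libraries. FR17 against TP5 gave 1 member called higher, Ctsw at 2.02 (1.56 to 2.62), and none lower, against 7.04% of all genes higher and 2.88% lower. Ctsf was just under the line at 0.99 (0.74 to 1.26). The median member was 0.15 above the median gene, and all 11 cysteine proteases were above it. sFD17 against TP5 gave 2 members called lower, Ctsk at −2.15 (−2.49 to −1.85) and Ctsf at −1.11 (−1.58 to −0.69), and none higher, against 5.64% lower and 6.74% higher, with a median of −0.18 relative to the median gene. For Ctsw the interval of this last difference, −0.29 to 1.11, held 0. Relative to the median gene, the macrophage markers had a median of 0.99 in FR17 against TP5, with all 18 above it. In sFD17 against TP5 theirs was −0.85, with 16 below and 2 above. The NK cell markers stood at 2.35 and 0.35 in these comparisons, and the part of either cell type was not tested.

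The rest of the lysosomal machinery was read from 6 further lists, whose calls stand beside 6.47% of all genes lower and 5.32% higher in sFD17, 4.99% and 3.2% in TP5, and 3.58% and 3.92% in FR17. Of 24 other lysosomal hydrolases, Pla2g15, Dnase2a and Cpq were called lower in sFD17 and none higher, with a median of −0.31 relative to the median gene, close to that of the members, and Hyal2 alone was called in FR17, higher. Pla2g15, the lysosomal phospholipase A2, had 84.2 CPM in control, 52.2 with TP5, 35.2 with sFD17 and 116 with FR17. Cpq, a carboxypeptidase, had 12.0, 10.6, 5.08 and 14.99 CPM in the same order and was at −1.22 (−1.66 to −0.84) in sFD17, on 67 counts against 203. Of the 21 other lysosomal membrane proteins only Gpnmb, a glycoprotein of phagocytes and melanocytes, was called in sFD17, with 82.4, 72.1, 24.8 and 82.0 CPM, while Lamp3, on 6 to 29 counts, was called lower in TP5. The median of the list was −0.22 in sFD17 and −0.12 in FR17 relative to the median gene. Its summed counts, scaled and also relative to the median gene, were 1.31 times control in sFD17 and 0.712 times in FR17. Slc11a1, the metal transporter of phagosomes, had the order of Gla and Lamp2, with 851, 629, 1177 and 488 CPM, and so did Slc15a3, a peptide and histidine transporter picked out after its values were seen, with 970, 811, 1634 and 568 CPM.

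The V-ATPase pumps protons into the lysosome. Its 18 subunits had medians of −0.13 with TP5, −0.08 with sFD17 and −0.23 with FR17 relative to the median gene, and 17 of the 18 were not called in any peptide library. The exception, Atp6v0d2, the d subunit isoform of osteoclasts and macrophages, had 72.0 CPM in control, 46.5 with TP5, 5.68 with sFD17 and 104 with FR17, a log2 difference of −3.64 (−4.02 to −3.33) in sFD17. Atp6v0a1, the other subunit named by the rule, had 134, 91.7, 144 and 116 CPM. Of the 12 genes that sort enzymes to lysosomes none was called against control, and their median lay within 0.08 of the median gene in each library. Igf2r, the large mannose 6-phosphate receptor, had 43.3 CPM in control, 50.7 with TP5, 70.1 with sFD17 and 31.1 with FR17, and Gga2, an adaptor of that route, 14.4, 14.0, 8.87 and 15.5.

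Among the 18 genes of the MiT/TFE factors and of lysosomal mTORC1, Tfec and Rragb were called lower in sFD17 and none was called in TP5 or FR17. Rragb rested on 4 counts in sFD17 against 17 in control, with an interval of −3.76 to −0.12. Tfec, a relative of Tfeb found in macrophages, had 20.3 CPM in control, 15.3 with TP5, 3.41 with sFD17 and 33.6 with FR17, at −2.54 (−3.06 to −2.12) in sFD17. Mitf had 32.8, 30.9, 20.2 and 28.8 CPM. It was at −0.70 in sFD17 and Tfe3 at 0.68 there, so the mRNA of the factors did not share a direction. The activity of their proteins was not measured. Of the 11 cathepsin inhibitors, Serpinb6a, a serpin, was called lower in sFD17, with 60.6, 34.8, 21.7 and 82.5 CPM, and BC100530, a stefin, was called higher, with 2.49, 1.60, 5.38 and 1.70 CPM. The value of BC100530 rests on 71 counts in sFD17 against 42 in control, and reads shared with its close paralogs among the stefins were not measured.

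**Figure D5:**
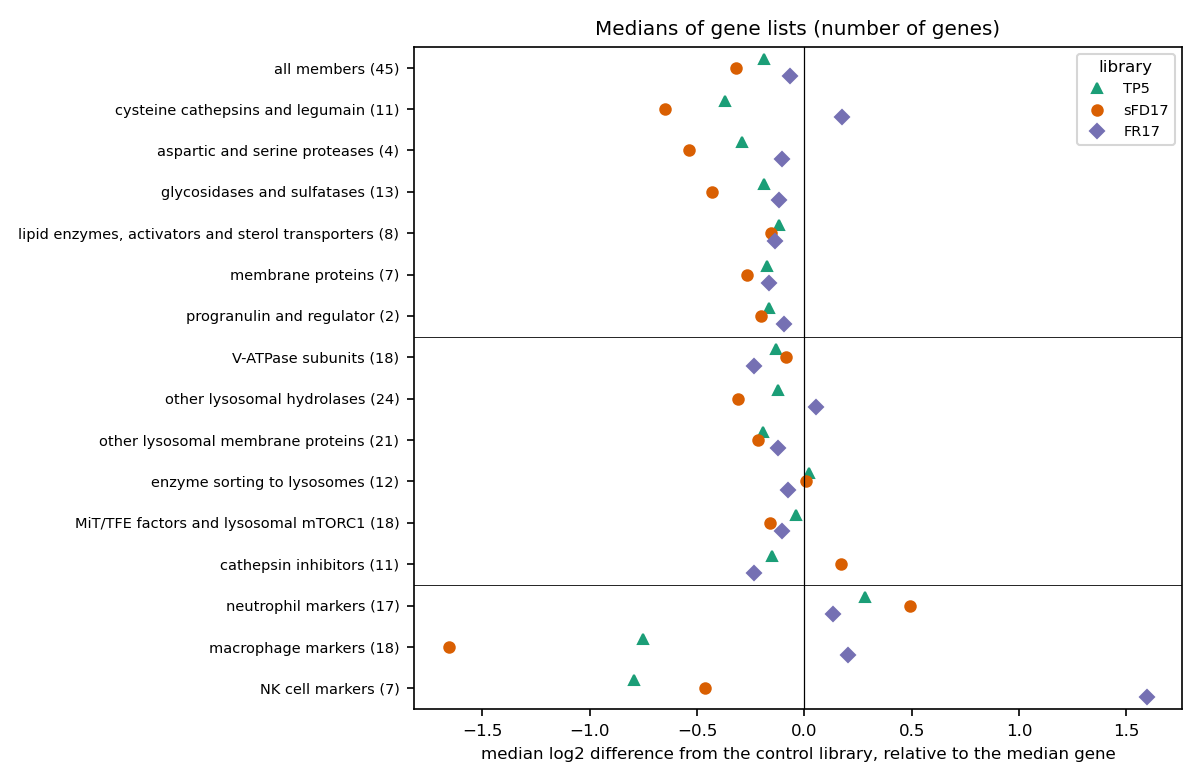
Median log2 difference from control, relative to the median gene, for the members, their 6 role groups, 6 other lysosomal lists and 3 marker lists, with the number of genes in brackets and TP5, sFD17 and FR17 as triangles, circles and diamonds. The cysteine proteases have the lowest sFD17 median of the role groups, the lipid group lies between −0.15 and −0.12 in the 3 libraries, and the macrophage markers lie far to the left in sFD17.

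Some members share exon bases with other genes in the annotation, and use of the strand in counting is not given in the sources used here. Ctsa shares 495 of 4715 exon bases with Pltp on the opposite strand, a gene with up to 5872 counts in a library, Ppt1 shares 129 of 3674 with Cap1, with up to 18116 counts, and Npc1 shares 511 of 11317 with Rmc1, with up to 1421. Of the called members, Hexa shares 255 of 1996 with Tmem202, with at most 36 counts, Glb1 shares 165 of 3008 with Tmppe on the same strand, with at most 72, and Ctsw shares 9 of 1887 with Fibp. Ctsk, Ctsf, Ctsc, Lgmn, Gla and Ctse share none.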

How the data were processed

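Total RNA of the sorted cells was extracted with TRIzol and made into libraries with the NEBNext Ultra Directional kit. The authors deposited a table of raw counts for 1 library per group, not normalized, with the length and coordinates of each gene. Their processing notes name HISAT2 2.0.5, StringTie 1.3.3b, featureCounts 1.5.0-p3, edgeR 3.18.1 and GRCm38.p6, without roles. Columns were matched to samples by group name. In the table of 54532 genes 100 symbols are repeated, and none of these is named here.

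With R 4.3.3, edgeR 4.0.16, DESeq2 1.42.0, Python 3.11.15, pandas 2.3.3, numpy 2.4.6, scipy 1.17.1 and matplotlib 3.10.9, counts were scaled by TMM (factors 0.849 to 1.17), and log2 CPM was taken (prior count 2) for the 16369 genes that reached 10 counts in 1 or more libraries. With 1 library per group no test has residual spread, so differences are given with exact Clopper-Pearson intervals of the count ratio and a call at 2-fold. TPM used the deposited gene lengths. Totals were 15543071 to 19638228 counts. At such depth the lowest count behind a member was 37, for Ctsw.

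The members, role groups, pathway and marker lists were chosen with earlier results of these data known. Values in every library are given for the 3 members of each role group with the highest mean TPM, for each member at least 2-fold from control where 1 of the 2 libraries held at least 50 counts, and for the 2 genes of each further list with the largest difference from control at that minimum. Other genes given values fall outside this rule, C1qa, Gzma, Arsb and Tfe3 among them. Only some of these others are marked in the text as picked after their values were seen or as called. The alternatives tried were library size alone, size factors of DESeq2, library size without the 50 most abundant genes, other filters, a prior count of 0.5, a call at 1.5-fold, a call whose interval lies past 1.5-fold, summed counts, marker lists without their most abundant gene and, added after seeing the data, the members without the cysteine cathepsins and legumain.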

Additional observations from a re-analysis of the deposited data

Results flagged for a closer look

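In 9 members the sFD17 and FR17 libraries lay on opposite sides of control and at least 2-fold apart, which are 20% of the members against 18.4% of all genes. The values were −2.44 and 0.42 for Ctsk, a log2 difference of 2.86, −1.76 and 0.34 for Ctsf, a difference of 2.10, −0.73 and 0.89 for Ctsw, a difference of 1.63, −1.13 and 0.22 for Ctsc, a difference of 1.35, −1.15 and 0.07 for Lgmn, a difference of 1.23, −0.88 and 0.24 for Hexa, a difference of 1.12, and −0.85 and 0.17 for Glb1, a difference of 1.03, whose FR17 interval of 0.01 to 0.34 held the median gene at 0.02. The 2 others went the other way, Gla at 0.23 in sFD17 and −1.12 in FR17, a difference of −1.35, and Ctse at 0.998 and −0.45, a difference of −1.44. With 1 library per group the difference was not tested.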

How the results depend on the processing

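Of 147 values of the list summaries under alternatives, 128 moved by less than a member's typical counting error or, for a count, by no more than 1.5 times, and of 612 values of single members 131 moved by more than counting error, 74 of them by library size alone, and none of those called changed sign. Library size alone, which moves the median gene, called 1 member higher (6.67% of all genes) and 0 lower (1.93%) in FR17 against control, and 19 higher (25.7%) and 0 lower (4.78%) in FR17 against sFD17, with 35 members (54.4% of all genes) highest in FR17 on the scaled values against 18 (33.2%). A call at 1.5-fold gave 2 members lower in TP5 (11.8% of all genes), 1 higher (13.4%) and 14 lower (15.6%) in sFD17, 1 higher in FR17 (11% of all genes) and 17 higher in FR17 against sFD17 (24.7%). DESeq2's size factors and a prior count of 0.5 each called 1 member, against 0, higher in sFD17 (5.69% and 6.14% of all genes). A mean of at least 100 counts left 0 called lower in TP5 (1.22% of all genes), since it removes Ctsw. Without a filter the median of FR17 against sFD17 was 0.28 relative to the median gene, against 0.17. Without Apoe the summed macrophage markers, scaled and relative to the median gene, came to 0.592 times control with TP5 and 0.329 with sFD17, against 0.635 and 0.368. Without S100a9 the neutrophil sums on that scale were 1.17 with TP5, 1.37 with sFD17 and 0.902 with FR17, against 1.11, 1.34 and 0.885. The members without the cysteine cathepsins and legumain had a median of −0.14, against −0.07, in FR17 against control and of 0.10, against 0.17, in FR17 against sFD17. No paired analysis was possible because each group is 1 library. Depth limits Ctsw and Ctsf most, and the variation between pools of mice is unknown.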
